A study of Equus caballus with 8 samples.

Results

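SCARA5, a class A scavenger receptor known as a receptor for ferritin, was compared with the genes that take up, store, release and sense iron in mesenchymal stem cells of equine bone marrow (BM-MSCs) grown with or without transforming growth factor-β2 (TGF-β2). SCARA5 was chosen by its log2 fold change, as the gene with the largest decrease in this very comparison, so its levels and its fold change are a description and carry no test. The other members were picked by their role in iron handling, with earlier results of these data known. Of 10 genes named, 9 had a row among the 15266 named genes of the table: SCARA5, TFRC, STEAP3, SLC11A2, FTL, FTH1, SLC40A1, IREB2 and HMOX1. SLC39A14 had no row and was not analysed here. RNA came from 8 libraries, 1 untreated and 1 treated culture from each of 4 adult Thoroughbred or Thoroughbred-cross horses, called D, J, L and W. Marrow was drawn from the sternum, and the marrow of each horse was divided between the conditions, so a horse's pair of cultures shares its animal. Treated cultures received 1 ng/ml of human recombinant TGF-β2 throughout, beginning at isolation and ending at passage 3 or 4 according to the labels, whereas the study's methods describe treatment over 3 passages, and untreated cultures received 0 ng/ml. Both conditions grew in low-glucose DMEM with fetal bovine serum, and serum supplies iron-loaded transferrin to cultured cells. By the study's methods the standard medium also held human basic fibroblast growth factor at 1 ng/ml, so TGF-β2 was added on top of it. The cells were plastic-adherent primary cultures, not a clone, and each horse gave 1 culture a condition.

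Most cells import iron bound to transferrin, which is captured by transferrin receptor 1 (TFRC), released inside the acidified endosome, reduced by STEAP3 and moved into the cytosol by the ferrous iron transporter SLC11A2. Iron that is not used at once is stored inside ferritin, a shell built from heavy (FTH1) and light (FTL) chains, and leaves the cell through ferroportin, the product of SLC40A1. The iron regulatory proteins, encoded by ACO1 and IREB2, bind stem-loops in messenger RNAs when iron is scarce, which stabilizes TFRC transcripts and blocks translation of ferritin and ferroportin, so part of this control does not show in transcript levels. HMOX1 releases iron by opening the haem ring. SCARA5 offers a route that bypasses transferrin, since it binds ferritin outside the cell and carries it inwards.

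The libraries held 39184554 to 57228675 reads over named genes. Values are normalized counts, which are not divided by gene length, so each gene was compared with itself across libraries and not with other genes. Tests were made with limma on log2(normalized count + 1) over 14907 genes, and a gene is said to have passed when its Benjamini-Hochberg adjusted p over all those genes was under 0.05. The same fit with the horse as a block is quoted where it moved a gene across that threshold. Without the block, 22.8% of all tested genes passed, 11.6% as higher and 11.2% as lower in treated cultures, and 11.5% both passed and changed by more than 1 on the log2 scale. With the block these shares were 30.9%, 15.7%, 15.3% and 14.1%. Untreated and treated libraries did not overlap for 27.8% of genes. Scaling each library to the same total in place of the deposited factors lowered the median log2 fold change of all tested genes by 0.31, from 0.0055 to -0.30, and changed the share of higher genes among those that passed from 51.0% to 19.4%, so small changes depend on the scaling. The labelled cell type was checked against its markers. All 5 markers of mesenchymal stem cells had rows, with sums of 138766 to 309522 normalized counts in untreated and 150975 to 250162 in treated libraries. Of these, ITGB1 rose by 0.91 on the log2 scale and THY1 fell by 2.21 (limma adjusted p = 0.0123 and 0.0494), ENG, at -0.42, passed as lower only with the block (limma adjusted p = 0.0695 and 0.0409), and CD44 and NT5E did not pass. Macrophages handle much of the body's iron, and 8 of 15 macrophage markers had a row. Their summed normalized counts were 79.2, 117, 771 and 424 in untreated cultures of horses D, J, L and W and 29.8, 43.9, 262 and 121 in the treated ones, lower in 4 of 4 horses. Of these markers CD163, the haemoglobin scavenger receptor, lay between 0 and 45.7 and TYROBP between 0 and 73.5 normalized counts in all libraries. FCER1G alone passed without the block, as lower (limma adjusted p = 0.0489), and MRC1 passed as lower only with it (limma adjusted p = 0.398 and 0.0480). In horse J the lower sum came from FCER1G, at 86.9 untreated and 3.21 treated. Of the other markers in horse J, MRC1 and SPI1 were lower and CSF1R, CD163, ITGAM, TYROBP and MSR1 higher in the treated culture. Of 5 leukocyte markers 4 had a row. Their sums were 207, 543, 624 and 365 in untreated and 453, 381, 796 and 473 in treated cultures. Only the sum of horse J was lower, and there PTPRC went from 110 to 3.21. CORO1A passed as higher, at 0.94 (limma adjusted p = 0.0311), and LAPTM5 as lower only with the block (limma adjusted p = 0.306 and 0.0259). KDR, 1 of 2 endothelial markers with a row, passed as higher, at 1.01 to 40.7 normalized counts (limma adjusted p = 0.0362).

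In untreated BM-MSCs, SCARA5 was present at 4829.8 normalized counts in horse D, 145 in horse J, 3991 in horse L and 6356 in horse W. In TGF-β2-treated BM-MSCs it was present at 5.96, 2.14, 1.15 and 8.41 in the same order. Every treated culture lay below every untreated one, and horse J, at 145, stood far under the other untreated cultures, whose mean was 34.9-fold higher. The group means were 3830.4 ± 2645 and 4.41 ± 3.37 normalized counts (SD, n = 4), which are 868-fold apart. As reads, the untreated cultures held 5551, 215, 4235 and 6265 and the treated cultures 5, 2, 1 and 7. The level was thus lower in treated cultures by 811-fold in horse D (95% counting interval 347 to 2499), by 67.6-fold in horse J (18.5 to 562), by 3471-fold in horse L (623 to 137137) and by 756-fold in horse W (367 to 1881). These exact intervals cover the counting of reads and no other error, and they are wide because few reads were left. The intervals of horses D, L and W overlap, and that of horse J overlaps those of D and W but not that of L. In normalized counts, 3 reads correspond to 2.02 to 3.60 depending on the library, so the treated cultures of horses J and L were at or below that level.

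On the log2(normalized count + 1) scale the SCARA5 difference was -8.81 over all horses and ranged from -10.86 in horse L to -5.54 in horse J. Leaving horse J out gave -9.90. The added 1 shortens a difference of this kind, since the treated level is only a few counts, and with 5 added in its place the value was -7.85. SCARA5 passed the filter on low values through its untreated libraries alone, because no treated library reached 10 normalized counts. The decrease next in size was that of GPC3, a heparan sulfate proteoglycan of the cell surface, at -7.69. In bulk RNA, fewer cells that carry SCARA5 and less SCARA5 RNA in each cell cannot be told apart.

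**Figure D1:**
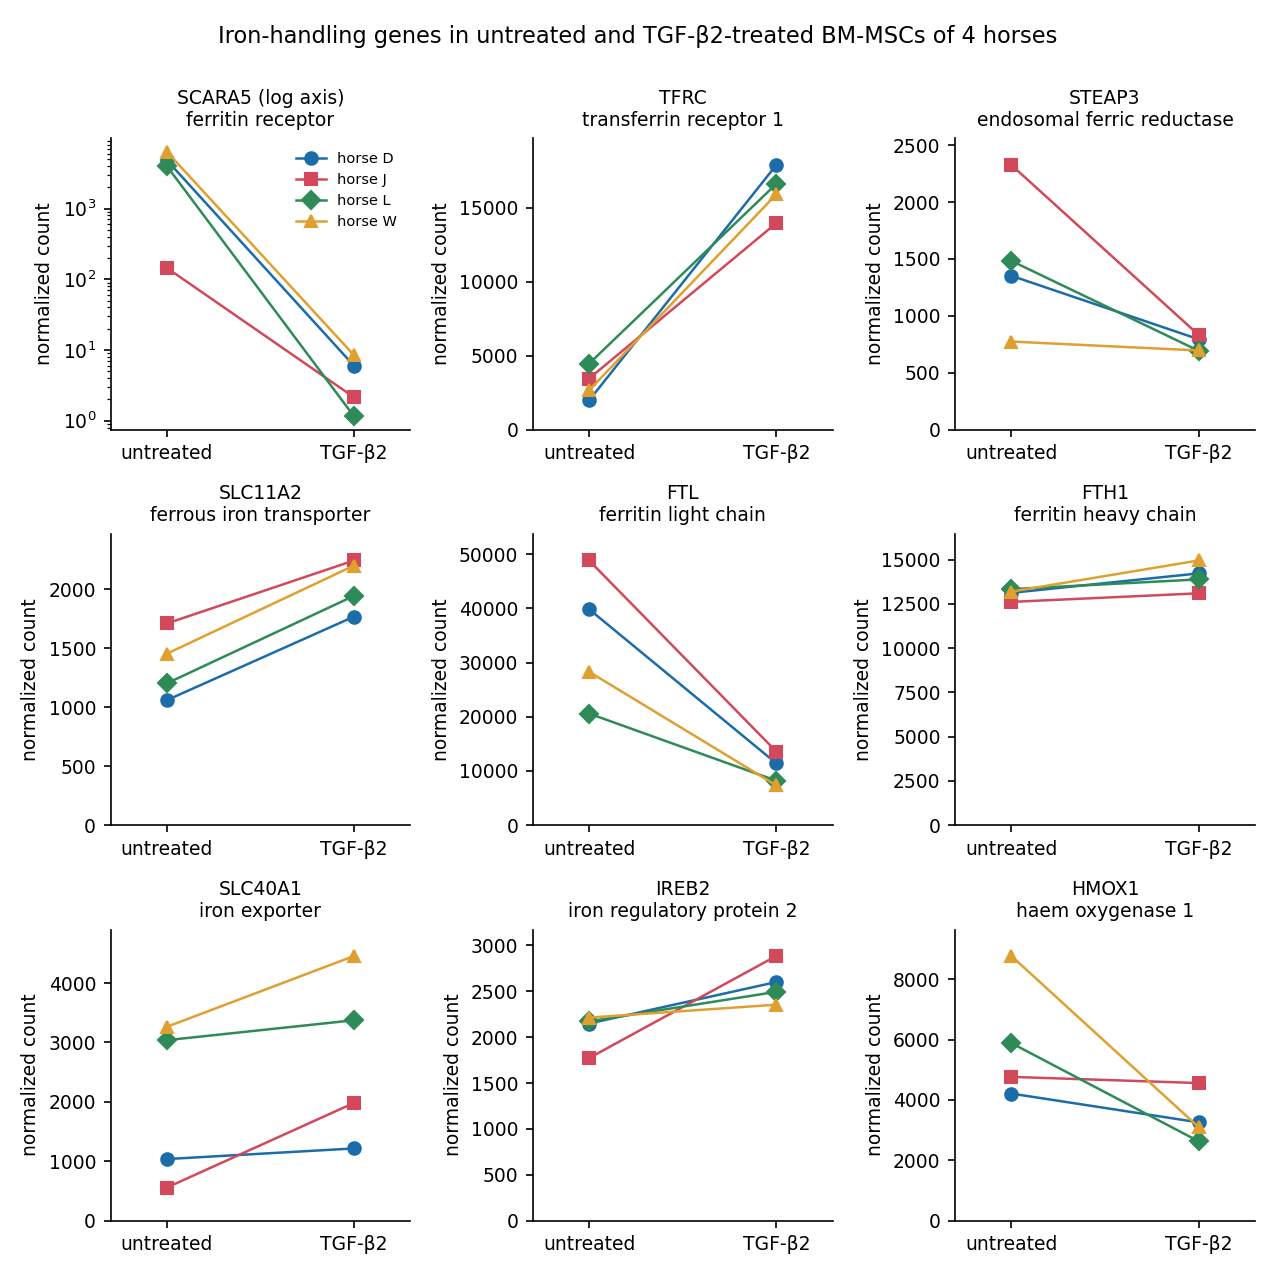
Normalized counts of the 9 iron-handling genes by treatment (log axis for SCARA5, linear axes from 0 for the others), with 1 line for each horse. SCARA5 runs from between 145 and 6356 to under 10 in all horses, TFRC rises from 1984 to 4465 up to 13975 to 17907, FTL falls, and the lines of FTH1 are nearly level.

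The genes most like SCARA5 were found by the root mean square difference between log2(normalized count + 1) profiles, each centred on its own mean, over the 8 libraries and 14906 other genes. The closest was GPC3, with a difference of 0.65 log2 units, followed by SNED1, a secreted matrix protein, with 1.02. Then came PDE1A, a phosphodiesterase that breaks down cyclic nucleotides, with 1.68, EPHX1, a microsomal epoxide hydrolase, with 1.68, and RBP5, a cellular retinol-binding protein, with 1.75. None of these 5 genes was on the lists of iron genes. GPC3 was present at 5672, 365, 10246 and 12081 normalized counts in untreated cultures of horses D, J, L and W and at 33.4, 11.8, 8.05 and 34.8 in the treated ones. SNED1 was present at 4630, 272, 2978 and 4297 in untreated and at 10.3 to 18.0 in treated cultures. The untreated culture of horse J was the lowest for all 5, with 1981 normalized counts of EPHX1 against 9639 to 15704 in the other horses, 31.0 of PDE1A against 92.3 to 953, and 20.2 of RBP5 against 48.1 to 615. PDE1A and RBP5 were at 0 to 2.38 in treated cultures. All 5 were found by likeness to a gene picked for its decrease, so their decreases and the low culture of horse J follow from the search and carry no test.

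**Figure D2:**
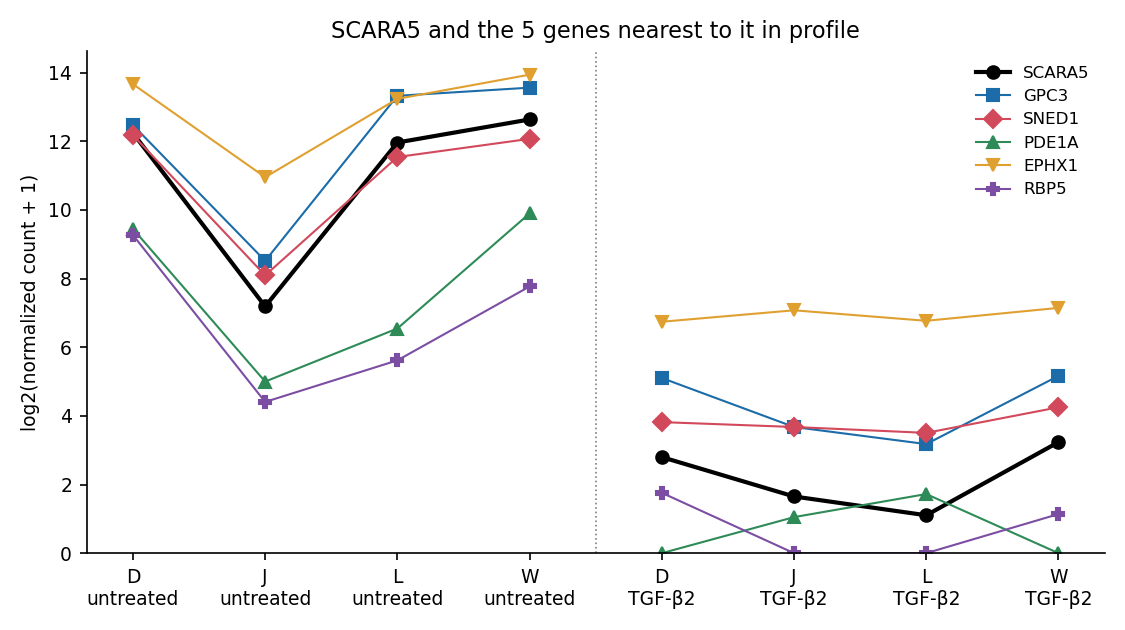
Log2(normalized count + 1) of SCARA5 and the 5 genes with the most similar profile in the 8 libraries. All 6 genes are lower in every treated library than in any untreated one, and all have their lowest untreated point in horse J.

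SCARA5 lies close to SCARA3, a related scavenger receptor that responds to oxidative stress, and the order of genes around it was read from the TB-T2T horse assembly of RefSeq, which is not the build used for counting. Of the 4 genes on each side, 6 had a row. SCARA3 was at 5855 ± 1201 normalized counts untreated and 2449 ± 609 treated (SD, n = 4), and it fell with a log2 fold change of -1.27 ± 0.21 (SE, limma adjusted p = 0.00550), and was lower in 4 of 4 horses. CCDC25, ESCO2, PBK and ELP3 did not pass, with log2 fold changes of -0.29, -0.51, -0.05 and -0.09 and limma adjusted p of 0.124, 0.539, 0.963 and 0.533. ZNF395 was at -0.87 and passed only with the horse as a block (limma adjusted p = 0.0928 without and 0.0181 with it).

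Among the other class A scavenger receptors, SCARA3 and COLEC12 passed as lower and none of 3 tested genes passed as higher, with or without the block (66.7% in both, beside 22.8% and 30.9% of all genes). COLEC12, a collectin that binds sugars and modified lipoproteins, was at 5626, 5542, 5859 and 2815 normalized counts in untreated and at 946, 3207, 412 and 698 in treated cultures. The treated culture of horse J was above the untreated culture of horse W, so the groups overlapped, although each horse was lower after treatment. The log2 fold change of COLEC12 was -2.30 ± 0.58 (SE, limma adjusted p = 0.0241). MSR1, the scavenger receptor of macrophages, did not pass, at -0.92 (limma adjusted p = 0.668), and lay between 2.02 and 155 normalized counts. MARCO had no row.

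Of the 8 members other than SCARA5, 3 passed without the block, beside 22.8% of all genes. TFRC and SLC11A2 rose and FTL fell. With the block STEAP3 passed as well, as lower, making 4 of 8 beside 30.9%. Those that also changed by more than 1 on the log2 scale were TFRC and FTL, 2 of 8 in both fits beside 11.5% and 14.1%. The groups did not overlap for 4 of 8 (TFRC, SLC11A2, FTL and IREB2), beside 27.8% of all genes. The median log2 fold change of the 8 was 0.21, and it was -0.10 when libraries were scaled to the same total. With so few members these shares describe the members and do not set them apart from other genes. Among the untreated cultures, horse J was the highest or the lowest for 7 of the 9 members, horse W for 5, and horses D and L for 3 each. Horse J was also the highest untreated culture for 48 of the 96 tested iron genes outside the members. The share over all genes is not given here, so these counts do not mark a trait of the members.

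**Figure D3:**
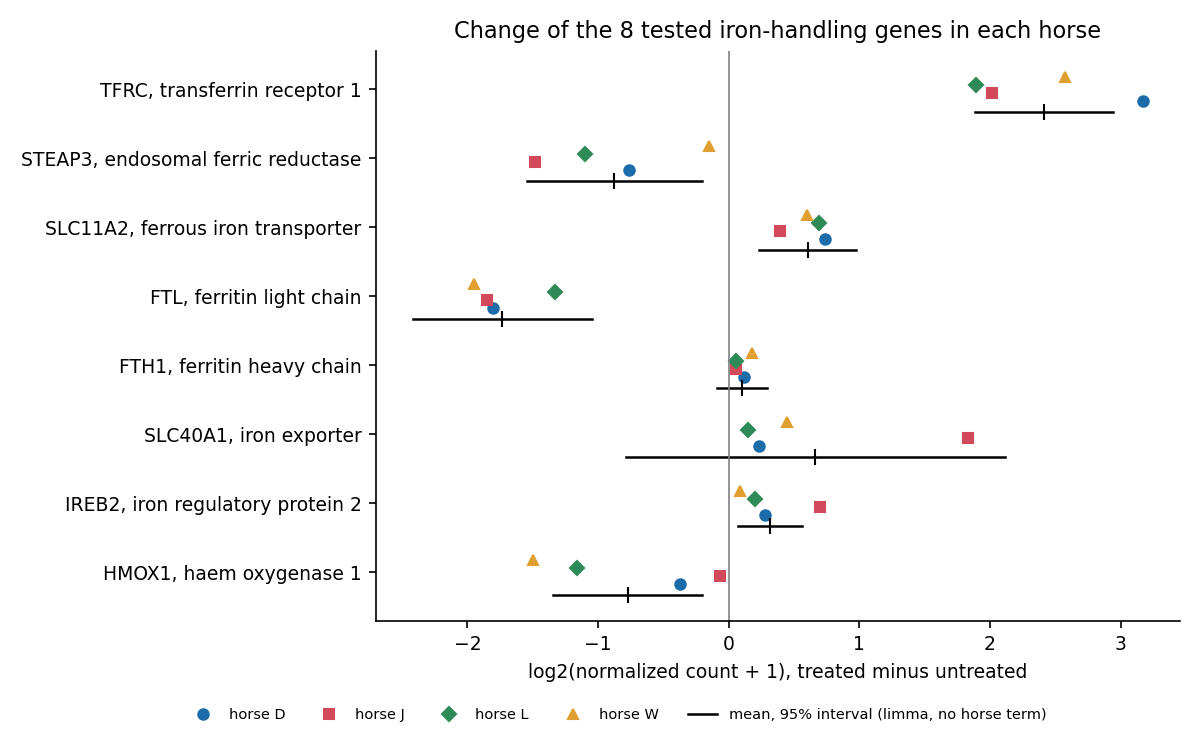
Change in log2(normalized count + 1), treated minus untreated, of the 8 tested members in each horse, with the limma mean and its 95% interval. All horses sit above 1.8 for TFRC and below -1.3 for FTL, while the interval of FTH1 and that of SLC40A1 include 0.

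TFRC, the receptor that brings transferrin-bound iron into the cell, was present at 1984, 3459, 4465 and 2665 normalized counts in untreated cultures of horses D, J, L and W. In treated cultures it was present at 17907, 13975, 16630.2 and 15923. The lowest treated culture, at 13975, was far above the highest untreated one, at 4465. The means of TFRC were 3143 ± 1068 untreated and 16109 ± 1642 treated (SD, n = 4), a 5.12-fold rise. The log2 fold change was 2.42 ± 0.23 (SE, 95% interval 1.89 to 2.95, limma adjusted p = 7.69e-04), and single horses ranged from 1.90 to 3.17. TFRC passed under 21 of 21 alternative settings, with log2 fold changes of 2.10 to 2.59.

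STEAP3, the endosomal reductase that turns ferric into ferrous iron, was at 1352, 2325, 1483 and 774 normalized counts in untreated cultures and at 794, 833, 693 and 696 in treated ones. The groups overlapped, because the untreated culture of horse W lay under 2 treated cultures of other horses, but each horse was lower after treatment. The log2 fold change was -0.87 ± 0.29 (SE, 95% interval -1.54 to -0.21), which did not pass without the block and passed with it (limma adjusted p = 0.0635 and 0.0342). Horse W differed by only -0.15 and horse J by -1.48. Without horse W the value was -1.11 and passed with no block (limma adjusted p = 0.0429). STEAP3 passed under 9 of 21 alternatives, so its call depends on the settings.

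SLC11A2, which carries ferrous iron out of the endosome, was at 1061, 1711, 1203 and 1455 normalized counts in untreated cultures and at 1770.0, 2246, 1946 and 2203 in treated ones. The lowest treated culture, at 1770.0, was just above the highest untreated one, at 1711. SLC11A2 rose by 0.61 ± 0.16 on the log2 scale (SE, 95% interval 0.23 to 0.98, limma adjusted p = 0.0306) and was higher in 4 of 4 horses. With libraries scaled to the same total the value was 0.29 and no longer passed (limma adjusted p = 0.237), and in the fit with no block it did not pass without horse D (0.56), L (0.58) or W (0.61). In all it passed under 15 of 21 alternatives.

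In the transferrin cycle and the ferric reductases, 12 of 14 listed genes were tested, members included. TFRC, SLC11A2 and EXOC6 rose, SLC11A1 fell, 33.3% of the list beside 22.8% of all genes, and the median log2 fold change was 0.03 beside 0.0055. EXOC6, an exocyst subunit that serves the recycling of transferrin receptors, rose from 95.4 to 141 normalized counts in untreated to 202 to 495 in treated cultures, a log2 fold change of 1.49 ± 0.28 (SE, limma adjusted p = 0.00882). SLC11A1, a metal transporter of phagosomes, fell from 68.0 to 132 down to 24.0 to 56.3, a log2 fold change of -1.34 ± 0.35 (SE, limma adjusted p = 0.0269). SLC11A1 is a gene of macrophages, whose marker sums were also lower in treated cultures, at 29.8 to 262 against 79.2 to 771. In horse J the lower sum came from FCER1G, and the part of such cells in the SLC11A1 difference was not tested. With the block 7 of 12 passed, 4 as higher and 3 as lower (58.3%, beside 30.9% of all genes). Those added were STEAP3 and TF, transferrin itself, as lower, and STEAP2 as higher. TF went from 38.3 ± 24.2 to 16.6 ± 8.40 normalized counts (SD, n = 4, limma adjusted p = 0.223 without and 0.0288 with the block). STEAP2 was at 0.82 (limma adjusted p = 0.113 and 0.0480). PICALM, a clathrin adaptor involved in uptake of the receptor, was at 0.26 and did not pass (limma adjusted p = 0.0715), and it was at -0.054 under total scaling.

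Outside the transferrin cycle, none of 3 tested genes passed without the block, and 2 passed as higher with it. These are 0% and 66.7%, beside 22.8% and 30.9% of all genes, and shares of 3 genes describe only those genes. LCN2, lipocalin 2, which carries iron bound to siderophores, was at 149 ± 53.2 normalized counts untreated and 382 ± 167 treated (SD, n = 4), or 1.28 on the log2 scale (limma adjusted p = 0.0716 without and 0.00625 with the block). SLC22A17, a receptor described for lipocalin 2, was at 1720 ± 932 and 3599 ± 1333, or 1.21 (limma adjusted p = 0.100 and 0.0269). Both were higher in 4 of 4 horses, and for both the untreated and treated groups overlapped. LRP1, which takes up haem bound to haemopexin among many other ligands, was at 0.35 and did not pass (limma adjusted p = 0.672), with 2 horses higher and 2 lower.

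FTL, the ferritin light chain, which promotes the formation of the iron core, was present at 39858, 48857, 20600.0 and 28320.3 normalized counts in untreated cultures of horses D, J, L and W. In treated cultures it was present at 11408, 13582, 8202 and 7336. Each treated culture was below all untreated ones. The means of FTL were 34409 ± 12466 untreated and 10132 ± 2891 treated (SD, n = 4), a 3.40-fold fall. The log2 fold change was -1.73 ± 0.30 (SE, 95% interval -2.42 to -1.05, limma adjusted p = 0.00620), with single horses between -1.95 and -1.33. It passed under 20 of 21 alternatives, the exception being the fit without horse D and without the block (limma adjusted p = 0.0528). In horses D and J, whose macrophage marker sums were the lowest at 79.2 and 117, FTL changed by -1.80 and -1.85 on the log2 scale, beside -1.33 and -1.95 in horses L and W. The marker sum was itself lower in 4 of 4 treated cultures, in horse J through FCER1G, and the part of such cells in the FTL difference was not tested.

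FTH1, the heavy chain, which oxidizes ferrous iron for storage, was at 13116, 12606, 13326 and 13187 normalized counts in untreated and at 14216, 13090.0, 13876 and 14945 in treated cultures. The log2 fold change was 0.10 ± 0.083 (SE, 95% interval -0.087 to 0.29, limma adjusted p = 0.415). It did not pass under any of 21 alternatives, and its direction turned to -0.21 when libraries were scaled to the same total.

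A ratio of the chains within a library does not depend on how libraries are scaled. FTL divided by FTH1, in normalized counts, was 3.04, 3.88, 1.55 and 2.15 in untreated cultures of horses D, J, L and W and 0.803, 1.04, 0.591 and 0.491 in the treated ones. The ratio was lower in 4 of 4 horses, with means of 2.65 ± 1.02 and 0.731 ± 0.242 (SD, n = 4) and no overlap. The log2 change of the ratio was -1.92, -1.90, -1.39 and -2.13 by horse, with a mean of -1.83 ± 0.32 (SD, n = 4). An exact permutation test of the log2 ratios, two-sided, gave p = 0.0286, the smallest that 4 against 4 libraries allow, but it exchanges libraries as if they were independent. With exchange only within each horse, which keeps the pairing, the exact p was 0.125, the smallest that 4 pairs allow, so the paired design cannot reach 0.05. The ratio was added after the values of both genes had been seen. Genes for ferritin chains have many processed copies in mammalian genomes, and reads that match several places could be lost in counting, so the level of the ratio is uncertain, and whether such loss differed between libraries was not tested.

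**Figure D4:**
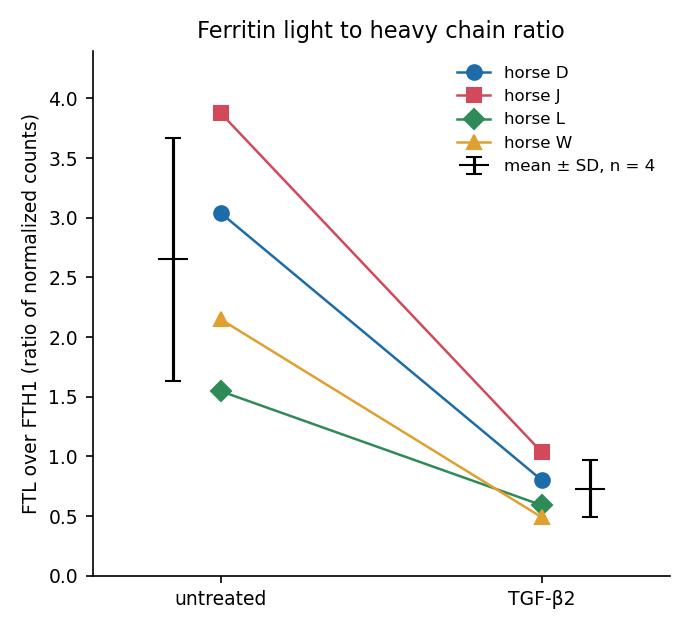
Ratio of FTL to FTH1 normalized counts within each library (linear axis), untreated and TGF-β2-treated, with 1 line for each horse and bars for the mean ± SD (n = 4). Untreated ratios lie between 1.55 and 3.88 and treated ratios between 0.491 and 1.04.

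Of 8 tested genes of ferritin storage and turnover, 1 rose and 1 fell in both fits (25.0%, beside 22.8% and 30.9% of all genes), and the median log2 fold change was -0.03. The gene that rose was TAX1BP1, a receptor for autophagy that helps deliver ferritin to lysosomes, at 0.46 (limma adjusted p = 0.0120). PCBP2, a chaperone that hands iron to ferritin, was at 15176 ± 1209 and 15068 ± 954 normalized counts (SD, n = 4), a difference of -0.0092 that did not pass (limma adjusted p = 0.959) and that turned to 0.0022 under upper-quartile scaling.

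SLC40A1, ferroportin, the exporter of iron, was at 1037, 557, 3039 and 3263 normalized counts in untreated cultures and at 1216, 1983, 3374 and 4456 in treated ones. Horses L and W were well above horses D and J in untreated cultures, and all 4 horses were higher after treatment. The difference came to 0.15 to 0.45 on the log2 scale in horses D, L and W and to 1.83 in horse J. The log2 fold change was 0.66 ± 0.63 (SE, 95% interval -0.79 to 2.11), and it passed neither without nor with the block (limma adjusted p = 0.494 and 0.143) nor under any of 21 alternatives. Without horse J the value was 0.28. The block removes differences in level between horses, but not the unequal change from 0.15 to 1.83. Macrophages express ferroportin. Among untreated cultures the macrophage marker sum was also higher in horses L and W than in D and J, at 771 and 424 against 79.2 and 117. After treatment that sum was lower in 4 of 4 horses, in horse J through FCER1G, whereas SLC40A1 was higher. The part of such cells in these levels was not tested.

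Among 8 tested genes of export and hepcidin control, 1 rose and 3 fell in both fits (50%, beside 22.8% and 30.9% of all genes), with a median of 0.02. CP, ceruloplasmin, the copper ferroxidase that works beside ferroportin, was at 733, 2101, 1123 and 1311 normalized counts in untreated and at 97.7, 374, 279 and 136 in treated cultures. It fell by 2.66 ± 0.47 on the log2 scale (SE, limma adjusted p = 0.00662), lower in 4 of 4 horses without overlap. HFE, the partner of transferrin receptors that is mutated in hereditary haemochromatosis, fell from 1702 ± 353 to 824 ± 108 normalized counts (SD, n = 4), by 1.03 ± 0.17 (SE, limma adjusted p = 0.00518). NEO1, neogenin, a receptor that takes part in hepcidin control, fell by 0.78 (limma adjusted p = 0.0142). ERFE, the hormone erythroferrone, which lowers hepcidin, rose from 20.7 to 26.4 normalized counts up to 48.8 to 69.7, a log2 fold change of 1.33 ± 0.23 (SE, limma adjusted p = 0.00620).

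IREB2, iron regulatory protein 2, was at 2148, 1772, 2171 and 2213 normalized counts in untreated cultures and at 2600.2, 2884, 2493 and 2354 in treated ones. The groups did not overlap, and horse J went from the lowest untreated to the highest treated culture. The log2 fold change was 0.32 ± 0.11 (SE, 95% interval 0.071 to 0.56), which did not pass without or with the block (limma adjusted p = 0.0667 and 0.101). It was 0.0047 when libraries were scaled to the same total, and it passed under 1 of 21 alternatives.

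Of 9 tested genes of iron sensing, none rose and 2 fell, EPAS1 and SKP1 (22.2%, beside 22.8% of all genes), and the median was -0.24. EPAS1, hypoxia-inducible factor 2α, whose messenger RNA carries an iron-responsive element, fell from 18584 to 29645 normalized counts in untreated to 5742 to 9317 in treated cultures. Its log2 fold change was -1.68 ± 0.19 (SE, limma adjusted p = 0.00142), with single horses between -1.84 and -1.51. SKP1, part of the ubiquitin ligase that removes iron regulatory protein 2, fell by 0.35 (limma adjusted p = 0.0244). ACO1, iron regulatory protein 1, was at -0.43 and passed only with the block (limma adjusted p = 0.104 and 0.0115). That made 3 of 9 with the block, all lower (33.3%, beside 30.9% of all genes).

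HMOX1, the inducible haem oxygenase, was at 4211, 4765, 5884 and 8770.1 normalized counts in untreated cultures and at 3258, 4560, 2630.3 and 3101 in treated ones. The treated culture of horse J lay above the untreated culture of horse D, so the groups overlapped. The difference on the log2 scale was -1.16 in horse L and -1.50 in horse W, but -0.37 in horse D and -0.063 in horse J. The log2 fold change was -0.77 ± 0.25 (SE, 95% interval -1.35 to -0.20), which passed neither without nor with the block (limma adjusted p = 0.0573 and 0.0690). It was -1.09 under total scaling, where it passed (limma adjusted p = 0.0168), and -1.01 without horse J (limma adjusted p = 0.0345), and it passed under 5 of 21 alternatives. Macrophages express much HMOX1, and their untreated marker sums were also higher in horses L and W than in D and J, but their part in the difference was not tested.

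Of 11 tested genes of haem breakdown and transport, 2 rose and 3 fell without the block and 2 rose and 4 fell with it (45.5% and 54.5%, beside 22.8% and 30.9% of all genes), and the median was -0.37. ABCG2, an exporter of porphyrins and many drugs, fell from 1403 ± 139 to 682 ± 83.8 normalized counts (SD, n = 4), by 1.04 ± 0.12 on the log2 scale (SE, limma adjusted p = 0.00161). PGRMC1, a haem-binding membrane protein, fell by 0.67 (limma adjusted p = 0.0209) and HMOX2, the constitutive haem oxygenase, by 0.37 (limma adjusted p = 0.0172). ABCB6, a porphyrin transporter, rose from 932 ± 271 to 2015 ± 232 (SD, n = 4), by 1.15 ± 0.19 (SE, limma adjusted p = 0.00555). FLVCR1, a membrane transporter described as an exporter of haem, rose by 0.80 (limma adjusted p = 0.00867). The gene added with the block was SLC48A1, which moves haem out of lysosomes, at -0.92 (limma adjusted p = 0.0917 and 0.0379). In haem synthesis, 1 of 10 tested genes rose and 1 fell in both fits (20%, beside 22.8% and 30.9% of all genes), with a median of -0.29. SLC25A38, the mitochondrial carrier that supplies glycine for the first step, rose by 0.86 (limma adjusted p = 0.0121), while ALAS1, the enzyme of that step, fell by 0.36 (limma adjusted p = 0.0414). UROD, a later enzyme of the pathway, was at -0.06 and did not pass (limma adjusted p = 0.813).

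Mitochondrial iron and iron-sulfur cluster genes held the largest list, and of 21 tested 2 passed without and 4 with the block (9.52% and 19.0%, beside 22.8% and 30.9% of all genes). FDX1, a mitochondrial ferredoxin, and FDXR, the ferredoxin reductase, rose by 0.58 and 0.54 (limma adjusted p = 0.0481 and 0.0230). FDX1L, the other ferredoxin of the list, also called FDX2, was at -0.26 and passed in neither fit (limma adjusted p = 0.262 and 0.157). With the block FDX1 no longer passed (limma adjusted p = 0.0505), FDXR did, and NFS1, HSCB and NFU1 passed as lower, at -0.32, -0.53 and -0.51 (limma adjusted p = 0.0433, 0.0402 and 0.0167). The median was -0.13. HSPA9, a mitochondrial chaperone, was at 0.15 (limma adjusted p = 0.718), with -0.16 under total scaling, and ISCA2, a late assembly factor, at -0.31 (limma adjusted p = 0.349).

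NFE2L2 and BACH1 encode an activator and a repressor that compete at the same antioxidant response elements, and both HMOX1 and the ferritin genes are known targets. NFE2L2 was at 6086, 5695, 6051 and 6094 normalized counts in untreated and at 3621, 3807, 3575 and 3601 in treated cultures, and fell by 0.71 ± 0.072 on the log2 scale (SE, limma adjusted p = 9.60e-04). BACH1 was at 4019, 2603, 2793 and 2629.8 in untreated and at 1463, 1345, 1422 and 1181 in treated cultures, and fell by 1.13 ± 0.16 (SE, limma adjusted p = 0.00250). Activator and repressor were thus both lower in 4 of 4 horses without overlap. Of 12 tested genes of this axis, 3 passed (25.0%, beside 22.8% of all genes), SLC7A11 being the 1 that rose. With the block GCLC and TXNRD1, enzymes of glutathione and thioredoxin metabolism, passed as lower too, at -0.92 and -0.81 (limma adjusted p = 0.0409 and 0.0326). That made 5 of 12 with the block (41.7%, beside 30.9% of all genes). SRXN1, sulfiredoxin, was at 0.57 and did not pass (limma adjusted p = 0.380), with 32126 normalized counts in the untreated culture of horse J against 9426 to 12938 in the others.

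SLC7A11 and SLC3A2 form the cystine importer that feeds glutathione synthesis and so protects membranes from iron-driven lipid peroxidation. SLC7A11 was at 82.7, 283, 749 and 261 normalized counts in untreated and at 748, 825, 1720 and 1827 in treated cultures, and rose by 2.18 ± 0.63 on the log2 scale (SE, limma adjusted p = 0.0386), higher in 4 of 4 horses with the untreated culture of horse L just above the lowest treated one. SLC3A2 was at 1485, 2189, 5765 and 1902 in untreated and at 5954, 6658, 7821 and 7421 in treated cultures, and rose by 1.50 ± 0.38 (SE, limma adjusted p = 0.0239). These were the 2 of 8 tested genes of lipid peroxidation defence that passed without the block (25.0%, beside 22.8% of all genes), and the median was 0.17. GPX4, the lipid peroxidase that uses glutathione, was at -0.21 and did not pass (limma adjusted p = 0.216). ACSL4, which makes the lipids that are most easily oxidized, was at -0.52 and passed as lower only with the block (limma adjusted p = 0.0756 and 0.00996). That made 3 of 8 with the block (37.5%, beside 30.9% of all genes).

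**Figure D5:**
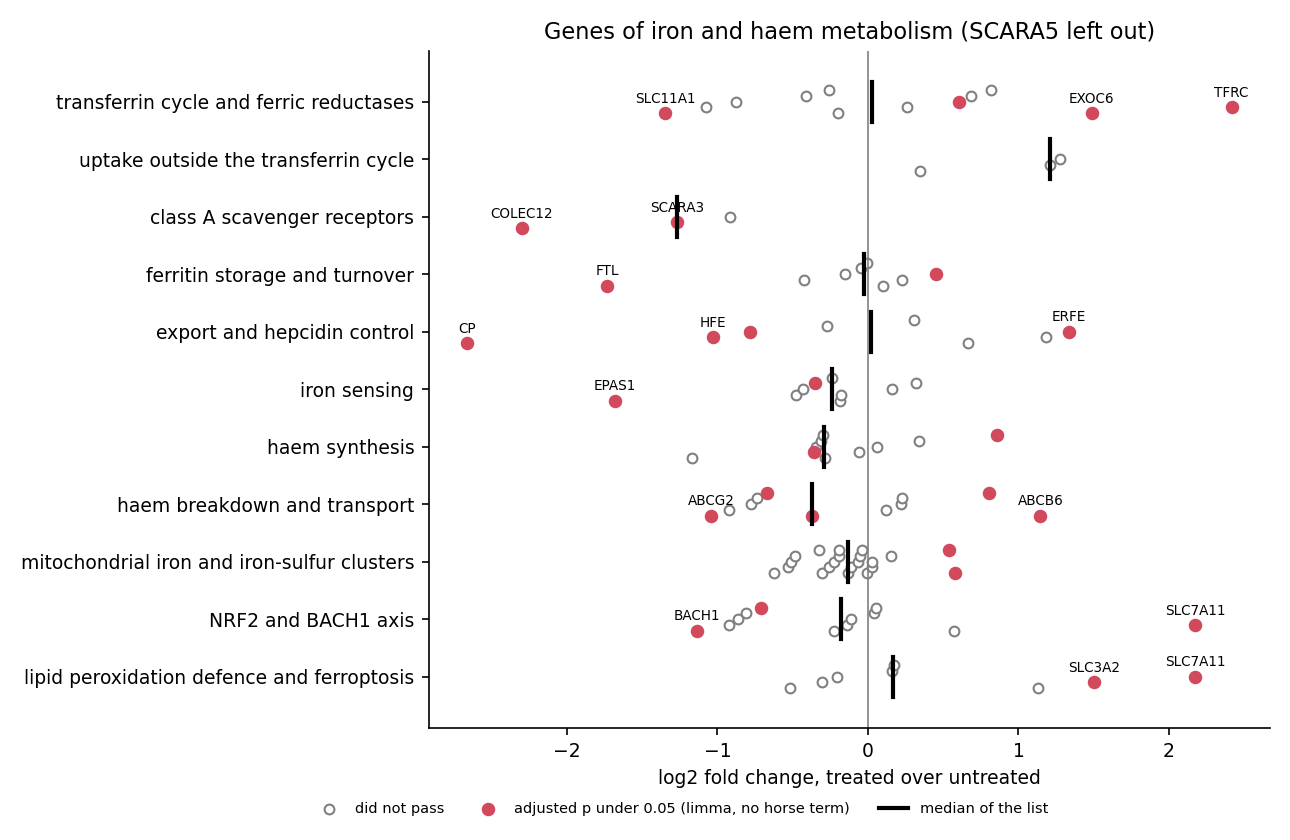
Log2 fold change, treated over untreated, of each tested gene in the lists of iron and haem metabolism, SCARA5 left out, with filled points for limma adjusted p under 0.05 and a bar at each list's median. Filled points lie on both sides of 0, from CP at -2.66 to TFRC at 2.42, and the list medians other than those of uptake outside the transferrin cycle and of scavenger receptors lie between -0.37 and 0.17.

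Over all lists, members left out, 97 of 112 named genes had a row and 96 were tested. Of these 24 passed, 10 as higher and 14 as lower, or 25.0% beside 22.8% of all genes. With the block 35 passed, 12 as higher and 23 as lower, or 36.5% beside 30.9%. Those that also changed by more than 1 on the log2 scale were 13, or 13.5% beside 11.5%. The groups did not overlap for 28 of the 96, beside 27.8% of all genes. The median log2 fold change was -0.19 beside 0.0055, and -0.50 beside -0.30 under total scaling. By direction, 10.4% passed as higher and 14.6% as lower without the block, beside 11.6% and 11.2% of all genes, and 12.5% and 24.0% with it, beside 15.7% and 15.3%. No test was made of the lists as a whole.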

How the data were processed

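Poly(A)-selected RNA of 8 libraries was sequenced. Per the labels' processing notes, the authors used Trimmomatic 0.36, STAR 2.5.2b, featureCounts of Subread 1.5.2 and DESeq2, and by the study's methods reads were aligned to an EquCab genome and unique hits were counted for each gene. The deposited table holds normalized counts, that is, read counts scaled by 1 factor a library, a unit named signal here, with no replicates pooled. A table of 15267 rows was read, of which 1 carried no gene name and was left out (0.0281 to 0.0531% of reads). Reads were recovered from the steps between low values, and all values came out whole within 0.05 reads. Depth was 39184554 to 57228675 reads a library, and counting intervals cover counting error only. Libraries were grouped and paired by the labels, which name the horse. No replicates were identical (Spearman 0.930 to 0.984).

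The members and the lists of iron genes and markers were chosen with earlier results of these data known. Genes that reached 10 normalized counts in 4 or more libraries were tested with limma 3.58.1 (R 4.3.3) on log2(normalized count + 1), with a trended prior, no horse term and Benjamini-Hochberg adjustment over all 14907 genes. Fits with the horse as a block, edgeR 4.0.16 and DESeq2 1.42.0 on recovered reads, other pseudocounts (0.5 and 5), filters (50 or none) and scalings, no trend, stricter thresholds, and fits without each horse were alternatives. Libraries of the same horse deviated together from their group means (mean r = 0.480, 0.386 to 0.609, 4 pairs), and the labels give the same animal, so the pairing is real. For different horses the mean was -0.159 (-0.400 to 0.116). That negative mean largely follows from the same-horse value, because each group was centred on its own mean, and is no separate observation. The cultures of a group came from different horses. On simulated data for this comparison (15121 genes, 199 changed by 2 on the log2 scale), limma recovered 198 with 0 other calls, and 199 with 5 other calls with the block. The simulation used the same dispersion for all genes and changes of that size only, so it does not show how smaller changes would be recovered. The FTL to FTH1 ratio was compared with scipy 1.17.1. The genes named were the members, each list's genes that passed with a log2 fold change beyond 1 in either fit, the 2 genes of each list with the highest mean, and the 5 genes most like SCARA5 with the next largest decrease. Other genes of a list that passed in either fit, FDX1L and the neighbours of SCARA5 were named after their values were seen.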

Additional observations from a re-analysis of the deposited data

Results flagged for a closer look

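In each group of 4 libraries, the highest and lowest were compared with the rest by Dixon's ratio for 44 named genes. The ratio was taken on log2(normalized count + 1), while the levels below are in normalized counts. It gave 8 flags in 88 groups, where chance gives about 1 in 20. Of these, 4 were in the untreated culture of horse J. Its 145 normalized counts of SCARA5 lay apart from 3991 to 6356 in the other untreated cultures, and its 272 of SNED1 from 2978 to 4629.7. SNED1 was found by likeness to SCARA5, so these are not separate observations. The same culture had 1772 of IREB2 beside 2148 to 2213 and 5695 of NFE2L2 beside 6051 to 6094. The untreated culture of horse W had 2815 of COLEC12 beside 5542 to 5859. The untreated culture of horse D had 4019 of BACH1 beside 2603 to 2793 and 16972 of PCBP2 beside 14349 to 14725. The treated culture of horse J had 2089 of UROD beside 1705 to 1752.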

How the results depend on the processing

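The SCARA5 log2 fold change kept its direction under every alternative run. With the horse as a replicate block, 4 tested members and 35 wider iron genes passed in place of 3 and 24, and STEAP3 passed at -0.87. Of all genes, 30.9% passed with the block in place of 22.8%. Members past the test numbered 5 with DESeq2 and the block, 6 with DESeq2, and 1 to 5 when a horse was left out, the lowest without horse D. Wider genes past it numbered 46 with DESeq2 and the block, 41 under total scaling, 13 with a fold change over 1 as well, 11 at adjusted p under 0.01, and 7 to 39 without a horse, at 7 without W, 9 without D and 15 without L in the fits with no block and 10 without D, 9 without W and 39 without J in those with it. Among all tested genes, 4612 passed under total scaling in place of 3403, and 19.4% of the 4612 were higher. Shares of all genes with DESeq2, at the stricter threshold and without a horse are not given here, so those counts describe the listed genes alone. STEAP3 was at -1.19 under total scaling, -0.98 with DESeq2 and with edgeR, -0.88 with either and the block, and -1.11 to -0.67 without a horse. HMOX1 was at -1.09 under total scaling, -0.80 with DESeq2, -0.77 with DESeq2 and the block, and -1.01 to -0.53 without a horse. SLC11A2 was at 0.29 under total scaling and 0.56 to 0.68 without a horse. FTL was at -1.87 to -1.66 without a horse, and IREB2 at 0.32 with DESeq2. Under total scaling FTH1 turned to -0.21, PICALM to -0.054 and HSPA9 to -0.16, and PCBP2 turned to 0.0022 under upper-quartile scaling and ranged from -0.053 to 0.022 without a horse. Among the wider genes named by the rule that passed, HFE, EPAS1, ABCG2, BACH1 and NFE2L2 passed under every alternative, whereas each of the rest lost its call when at least 1 horse was left out, and COLEC12, SLC7A11 and SLC3A2 also with edgeR and ALAS1 and SLC7A11 without the trended prior. Genes named after their values were seen were not carried through the alternatives. The cause of these shifts was not tested. Fits without a horse also hold fewer libraries, and the part of that in the shifts was not tested either. With 1 to 7 reads of SCARA5 in treated cultures, its differences between horses are limited by depth. With 4 horses a group, a change as unequal between horses as that of SLC40A1 did not pass.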
